A study of Mus musculus with 3 samples.

Results

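Group 2 innate lymphoid cells (ILC2s) are tissue lymphocytes that make type 2 cytokines and carry no rearranged antigen receptor. Their transcripts for arginine breakdown and polyamine metabolism were examined as a set of 10 genes, picked by name from the 27179 gene IDs of the table: the arginases Arg1 and Arg2, the polyamine enzymes Odc1, Amd1, Srm, Sms and Sat1, and the regulators of ornithine decarboxylase Oaz1, Oaz2 and Azin1. All 10 had a row, found through their Entrez IDs. The series holds 1 group, ILC2s of wild-type C57BL/6 mice with no treatment named in the labels, and its title concerns the circadian clock of group 3 innate lymphoid cells (ILC3s) in the gut. The design text names 3 mice and the series has 3 RNA sequencing libraries, called mouse 1, 2 and 3 here after the sample numbers, although no label ties a library to an animal. Their cells were sorted as KLRG1+, CD127+, CD90.2+ and CD45+ after removal of cells with B220, CD11c, CD11b, NK1.1, CD8, CD5 or CD3. The sources used here give neither the tissue nor the hour of collection, nor how old the animals were.

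Arginase splits arginine into urea and ornithine. Ornithine decarboxylase, the product of Odc1, turns ornithine into the polyamine putrescine. Spermidine synthase (Srm) and spermine synthase (Sms) then lengthen it to spermidine and spermine with aminopropyl groups that S-adenosylmethionine decarboxylase (Amd1) provides. Spermidine/spermine acetyltransferase (Sat1) marks polyamines for export or breakdown. Antizymes (Oaz1, Oaz2) bind ornithine decarboxylase and send it to the proteasome, and the antizyme inhibitor (Azin1), a relative of the decarboxylase without its activity, captures antizyme. In mice ILC2s are known for arginase-1 in the steady state, and in mouse lung loss of Arg1 in these cells limits their growth.

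The libraries held 17819551 to 26374248 counts. Levels below are CPM, the counts per 1000000 on scaled library sizes, and levels of different genes are compared as CPM per kb of exon, except in the search for genes of like level and where stated. All 12 ILC2 markers examined were detected, with summed levels of 11017 to 14459 CPM. Of the marker genes of other cells, the 6 of neutrophils and the 4 of hepatocytes had 0 counts in every library. Of 10 macrophage and monocyte genes 2 were detected, Lyz2 and Ccr2, and the list summed to 36.7 to 78.9 CPM, with Adgre1 and Retnla at 0. Of the ILC3 markers, Il23r had 0.0863 ± 0.0853 CPM (SD, n = 3) and Ccr6 had 0 counts, while Il22 and Il17a had 19.7 ± 12.1 and 15.1 ± 9.99 CPM. Plasma cell and B cell genes, 4 of 7 detected, summed to 7303, 15867 and 27992 CPM in mice 1, 2 and 3, with Ms4a1 and Pax5 at 0. Most of each sum came from Jchain alone, with 5527, 13790 and 18473 CPM. The T cell list gave 3 of 6 detected genes and 18.9 to 25.4 CPM, the NK cell and ILC1 list 1 of 5 and 1.28 to 14.4 CPM, the gut epithelial list 1 of 5 and 5.52 to 29.4 CPM, and the stromal and endothelial list 2 of 5 and 20.9 to 38.3 CPM. In bulk RNA, fewer cells of a type and less RNA per cell cannot be told apart.

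The libraries of sorted ILC2s held transcripts of nearly all of the 10 arginase and polyamine genes examined. Plasma cell and B cell transcripts were also present, as given above, and their part in these levels was not tested. At 1 CPM or more in each of the 3 libraries 9 of the 10 genes were detected, where 31.1% of all gene IDs were. Arg1 was the highest of them and Arg2, the other arginase gene, the only one not detected. Per kb of exon the median of the 10 genes was 9.74, 14.8 and 27.2 CPM in mice 1, 2 and 3. Over the 8326 detected genes with an exon length it was 5.61, 4.98 and 5.74 CPM per kb.

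Arg1 encodes arginase-1, the cytosolic liver-type enzyme, and lies at chr10:24915207-24927470 (GRCm38, the mm10 build). Its level was 821, 690 and 872 CPM in mice 1, 2 and 3, from 18617, 12134 and 22731 counts. The 3 libraries were close to each other, with a coefficient of variation (CV) of 11.8%. At 357 ± 42.1 CPM per kb (SD, n = 3), Arg1 ranked 181st, 245th and 165th among the 8326 detected genes in mice 1, 2 and 3, so that 1.97% to 2.93% of detected genes lay above it. It made up 55.7%, 48.8% and 54.6% of the summed per-kb level of the 10 genes. The macrophage and monocyte list, of a lineage in which arginase-1 is also known, summed to the 36.7 to 78.9 CPM given above, and its 8 undetected genes had at most 3.49 CPM in any library.

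Arg2 encodes the mitochondrial arginase and lies at chr12:79130788-79156301. It had 0, 3 and 8 counts in mice 1, 2 and 3, which is 0, 0.171 and 0.307 CPM. A count of 0 in mouse 1 allows a level of up to 0.132 CPM, for counting error only. Exons of Arg2 overlap those of Vti1b on the opposite strand, a gene with 3304 to 4675 counts, and the library kit does not mark strand. Even the few Arg2 counts are therefore uncertain, and may be too high or too low, since how reads were counted is not stated. Allowing for counting error only, Arg1 per kb was at least 3977-fold higher than Arg2 in mouse 1, taken against the limit of 3 counts. The ratio was 2592 in mouse 2 (95% exact Poisson interval of the Arg2 count 887 to 12571) and 1821 in mouse 3 (924 to 4218). As a difference of log2(CPM per kb + 0.5), Arg1 exceeded Arg2 by 9.20 ± 0.29 (SD, n = 3), a value that depends on the 0.5 because Arg2 lies near 0. Arg1 was higher in 3 of 3 mice, and the exact two-sided sign-flip test gave p = 0.25, which is the lowest it can give with 3 libraries (0.292 after Benjamini-Hochberg adjustment over 7 gene pairs).

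**Figure D1:**
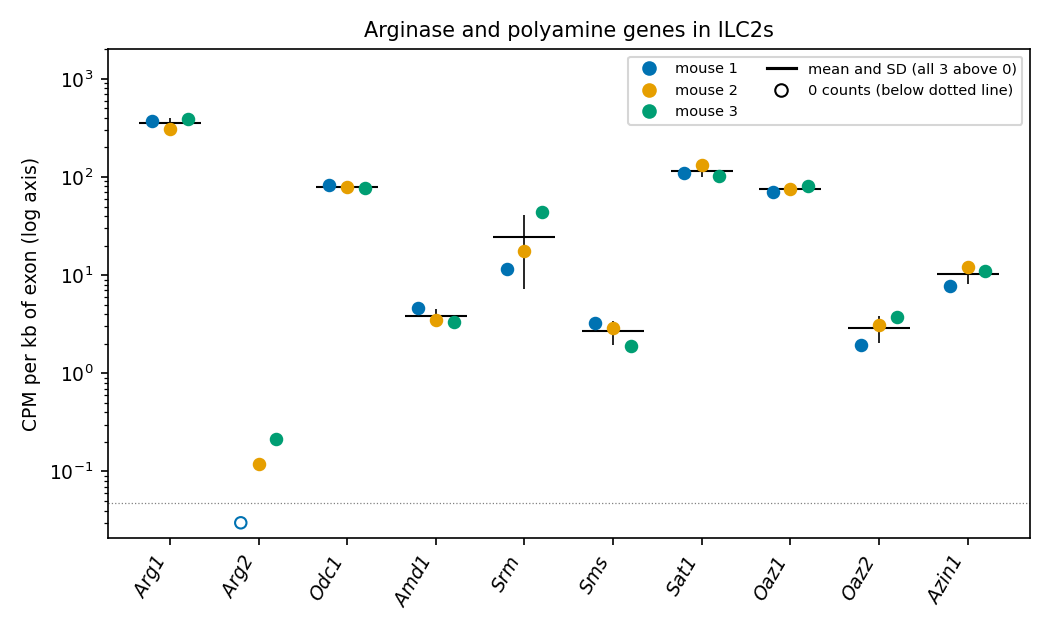
Level of each gene in each library, in CPM per kb of exon on a log axis; points are the 3 mice, horizontal lines means and vertical lines SD, and an open point stands for 0 counts. Arg1 lies above all other genes in each mouse, Arg2 below all, and Srm has the widest spread among the detected genes.

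The 4 genes of polyamine synthesis spanned a wide range, with Odc1 far above the rest. Odc1 (chr12:17544808-17551502) encodes ornithine decarboxylase, the enzyme that commits ornithine to polyamines. It had 281, 268 and 265 CPM in mice 1, 2 and 3. These values nearly coincided: the CV was 3.21%, and 99.0% of the 9175 genes tested for variation had a higher one. Per kb it reached 79.7 ± 2.56 CPM, and 9.30% to 10.1% of detected genes lay above it. By the largest absolute log2 difference over the 3 libraries, the genes most like Odc1 in CPM were Tcp1 (0.09), Zc3hav1 (0.09) and Skil (0.09). Those most like Arg1 were Gpr183 (0.15), Tpm4 (0.15) and Gadd45b (0.16). With 3 libraries this likeness is mostly one of level.

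Amd1 (chr10:40287458-40302188) encodes S-adenosylmethionine decarboxylase, which shares the control of polyamine synthesis with ornithine decarboxylase. Its level was 16.3, 12.2 and 11.9 CPM in mice 1, 2 and 3, with mouse 1 the highest. Per kb, Odc1 lay above Amd1 in each of the 3 mice, with a log2 difference of 4.23 ± 0.18 (SD, n = 3) and a ratio of 17.9 to 23.3 (exact sign-flip p = 0.25, adjusted 0.292). The Amd1 counts cannot be cleanly separated from those of Amd2, an intronless copy on the same chromosome. Their coding sequences have 1002 bases each and differ at 1 base, written G796C and counted from the first base of the Amd1 start codon. The stretch around it is shown for both genes because it is the only coding position at which a read can tell them apart. Each was read from GENCODE M21 transcripts on the minus strand, in coding exon sequence, and the capital marks the base that differs.
Amd1 (chr10:40290172-40290201): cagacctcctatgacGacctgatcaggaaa
Amd2 (chr10:35710750-35710779): cagacctcctatgacCacctgatcaggaaa
The row of Amd2 had 64, 34 and 51 counts against 370, 215 and 309 for Amd1 in mice 1, 2 and 3. Amd2 thus took 13.7% to 14.7% of the counts of the pair, a nearly constant share. How reads with several matches were counted is not stated.

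Srm, the spermidine synthase gene (chr4:148591513-148594619), was the uneven member. It had 18.7, 28.0 and 69.5 CPM in mice 1, 2 and 3, so that mouse 3 exceeded mouse 1 by 3.72-fold and mouse 2 by 2.48-fold. Its CV of 69.8% was exceeded by 9.97% of the genes tested. Sms, the spermine synthase gene (chrX:157443851-157492287), ran the other way, with 19.5, 17.3 and 11.3 CPM. Per kb, Srm lay above Sms in each mouse, by 1.70, 2.42 and 4.21 on the log2 scale, with a mean of 2.77 ± 1.29 (SD, n = 3; exact sign-flip p = 0.25, adjusted 0.292). Without mouse 3 the mean difference was 2.06. The order in mouse 1 depends on the length: in CPM without division by length Srm was below Sms there and above it in the other libraries, with a mean log2 difference of 1.06 ± 1.35 (SD, n = 3; exact sign-flip p = 0.5), and per kb of coding length the mean was 1.33. The summed plasma cell and B cell markers given above followed the same order of mice, as did the immunoglobulin share of counts at 1.04%, 3.89% and 7.81%, and their part in the Srm level was not tested.

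Sat1 (chrX:155213126-155216449) encodes the acetyltransferase that starts polyamine breakdown and export. It had 307, 365 and 283 CPM in mice 1, 2 and 3, with mouse 2 the highest. Per kb it was second to Arg1, at 115 ± 15.2 CPM (SD, n = 3), and lay above Odc1 in each of the 3 mice, with a log2 difference of 0.52 ± 0.19 (exact sign-flip p = 0.25, adjusted 0.292). The difference was 0.22 in CPM without division by length and 1.59 per kb of coding length, so its size depends on which length is used. The oxidases that act on polyamines were low: spermine oxidase (Smox) had 3.68 ± 0.94 CPM and Paox, which oxidises acetylated polyamines and was named after its values were seen, 0, 0 and 4 counts. Sat2, a paralogue of Sat1, had no counts.

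Antizyme transcripts were present at about the level of the transcript whose product they bind. Oaz1 (chr10:80826656-80829290) had 181, 195 and 209 CPM in mice 1, 2 and 3, with a CV of 7.13%. Oaz2 (chr9:65676548-65690300), the gene of a second antizyme of broad expression, had 5.82, 9.21 and 11.2 CPM. Both were lowest in mouse 1 and highest in mouse 3. Oaz1 made up 95.6% to 97.3% of the summed per-kb level of the pair, and exceeded Oaz2 by 4.52 ± 0.31 on the log2 scale (SD, n = 3) in 3 of 3 mice (exact sign-flip p = 0.25, adjusted 0.292). Oaz3, the antizyme gene of the testis, had 0 counts.

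Antizyme is made only when the ribosome shifts frame at a stop codon in the middle of the message, a step that polyamines favour. The shift site is shown for both antizyme genes, as it is the element that links these transcripts to the polyamine level, and for the pseudogene Oaz1-ps, with which Oaz1 shares long stretches of sequence. Each window of 30 bases was read from GENCODE M21 transcripts (GRCm38), and the capitals mark the codon before the stop, the TGA stop and the base after it.
Oaz1 (chr10:80828280-80828309, plus strand): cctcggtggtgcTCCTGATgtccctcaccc
Oaz2 (chr9:65686257-65686286, plus strand): cctctgtggtgcTCCTGATgcccctcaccc
Oaz1-ps (chr17:17345922-17345951, minus strand): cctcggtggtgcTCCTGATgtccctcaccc
The windows of Oaz1 and Oaz2 differ at 2 of 30 bases, and that of Oaz1-ps is identical to Oaz1. The core with its flanks, TGCTCCTGATG, was searched on the transcript strand and occurs once in each of the 3 transcripts used, and in some transcript of 0.184% of the 55450 annotated genes. Of the 50-base runs of the Oaz1 transcript, 52.2% are also found in Oaz1-ps. The pseudogene row took 2.26% to 3.19% of the counts of the pair.

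Azin1 (chr15:38487430-38519294), the antizyme inhibitor gene, had 48.8, 75.3 and 68.6 CPM in mice 1, 2 and 3, with mouse 1 the lowest. Per kb, Odc1 exceeded it by 2.92 ± 0.36 on the log2 scale (SD, n = 3) in 3 of 3 mice (exact sign-flip p = 0.25, adjusted 0.292). Odc1 and Oaz1, by contrast, could not be placed in order. Odc1 was the higher in mice 1 and 2 and Oaz1 in mouse 3, and the mean log2 difference of 0.06 ± 0.15 was smaller than its spread (exact sign-flip p = 0.75, also after adjustment). The sign also depends on the length: the mean difference was 0.48 in CPM without division by length, with Odc1 the higher, and -0.54 per kb of coding length, with Oaz1 the higher. The summed per-kb level of both antizymes was 0.881, 1.01 and 1.10 times that of Odc1 in mice 1, 2 and 3. Azin1 amounted to 0.129 ± 0.0223 of the summed antizymes (SD, n = 3). These ratios concern transcripts, and the amounts of the proteins were not measured.

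By mean CPM per kb the order was Arg1, Sat1, Odc1, Oaz1, Srm, Azin1, Amd1, Oaz2, Sms and Arg2. Of the 9 neighbouring pairs 6 kept this order in every mouse (exact sign-flip p = 0.25 each, adjusted 0.375). The 3 that did not were Odc1 with Oaz1, Amd1 with Oaz2 (0.35 ± 0.63 on the log2 scale, SD, n = 3) and Oaz2 with Sms (0.10 ± 0.72). Amd1, Oaz2 and Sms thus changed places between mice, and Arg2 was last in each. The order was taken from these same libraries, so the pairs that kept it and their p-values do not test it.

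**Figure D2:**
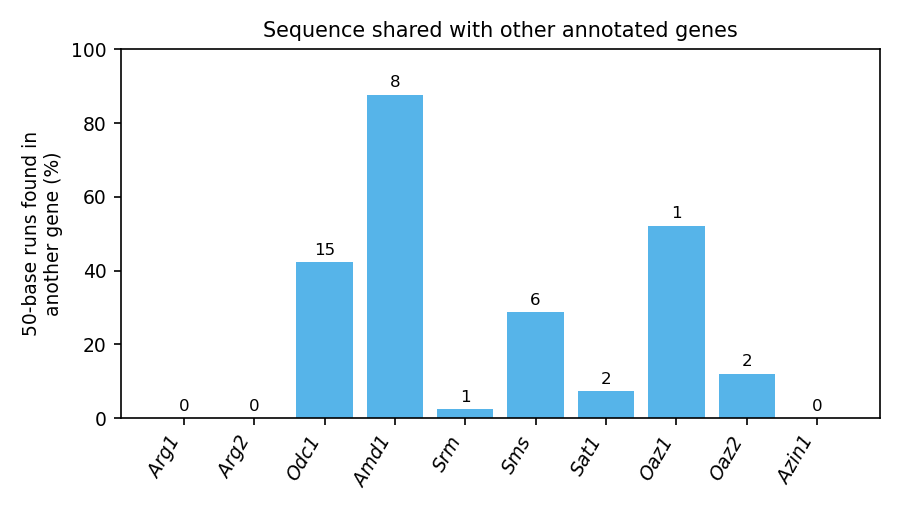
Share of 50-base runs of each gene's longest coding transcript that also occur in another annotated gene (vertical axis, percent), with the number of such genes above each bar. Amd1 shares 87.6% and Oaz1 52.2%, whereas Arg1, Arg2 and Azin1 share none.

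Odc1 shared 42.2% of its runs with 15 other genes and Sms 28.7% with 6, nearly all of them annotated pseudogenes. Of the 15 sharing with Odc1, 1 had a row in the table, and it had 0 counts in every library. Of the 8 genes sharing with Amd1, 1 had a row. Adding the counts of copies with a row left each gene-pair difference within its SD except that of Odc1 and Amd1, which became 4.03. Copies without a row, and any reads dropped for having several matches, could not be added. The check therefore cannot show how far shared sequence changed the levels of Odc1, Oaz1 and Amd1. The pairs of Arg1 with Arg2, Odc1 with Azin1 and Sat1 with Odc1 could not change, as their genes had no counted copy.

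A wider list of 44 genes that supply, use or transport arginine, ornithine and polyamines gave 19 detected genes at 1 CPM in each library, and 10 had no count in any. Its detected share was 43.2% where 31.1% of all gene IDs were detected. Of 15 genes of arginine supply and use, 3 were detected: Slc3a2, the heavy chain of several amino acid transporters (628 ± 239 CPM), Asl, which releases arginine from argininosuccinate (31.3 ± 13.1), and Slc7a1, a cationic amino acid transporter (14.7 ± 7.05). Slc7a2 and Slc7a3, the other cationic amino acid transporter genes on this list, had 0 counts, as did the urea cycle genes Otc and Cps1, Nos1 and Agmat. Arginine transporters outside the list were not examined. Ass1, which feeds Asl, had 26, 3 and 15 counts. Inducible nitric oxide synthase (Nos2), which competes with arginase for arginine, had 1.01, 2.33 and 0.422 CPM. Slc7a1, Ass1 and Nos2 were singled out after their values were seen.

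Among 8 genes of ornithine use, 3 were detected. Oat, the aminotransferase that takes ornithine towards proline and glutamate, was the highest at 111 ± 11.7 CPM, with 120, 116 and 97.7 CPM in mice 1, 2 and 3. Pycrl, a reductase of proline synthesis and the next by level per kb, had 97, 0 and 506 counts. Pycr1, a related reductase, had 0, 0 and 100 counts, and Slc25a15, the mitochondrial ornithine carrier, 0, 0 and 124. The last 2 genes were singled out after their values were seen, since all of their counts came from mouse 3.

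All 4 genes of hypusine formation, the use of spermidine to modify a translation factor, were detected. Eif5a, the factor that is modified, had 1173, 1011 and 1948 CPM in mice 1, 2 and 3, and Dhps, which transfers the spermidine part, 17.9, 22.1 and 46.6 CPM. Of the 4 genes these and Dohh, the hydroxylase of the final step, were highest in mouse 3, as were 34.4% of all detected genes. Eif5a2, a paralogue of the factor, was lowest there, with 7.32, 6.88 and 4.49 CPM. Dohh and Eif5a2 were named after their values were seen. Of 8 genes of methionine and methylthioadenosine metabolism, which make and recycle the aminopropyl donor, 6 were detected. Apip, a dehydratase of the salvage pathway (61.1 ± 9.16 CPM), and Mat2b, a subunit of S-adenosylmethionine synthetase (289 ± 20.4), were the highest of them per kb, and the liver form Mat1a had 0 counts. Of 4 polyamine transporter genes only Atp13a3 was detected, at 52.5 ± 17.0 CPM. Atp13a2, the next, had 1.40 ± 0.64 CPM and Atp13a4 had 0 counts.

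**Figure D3:**
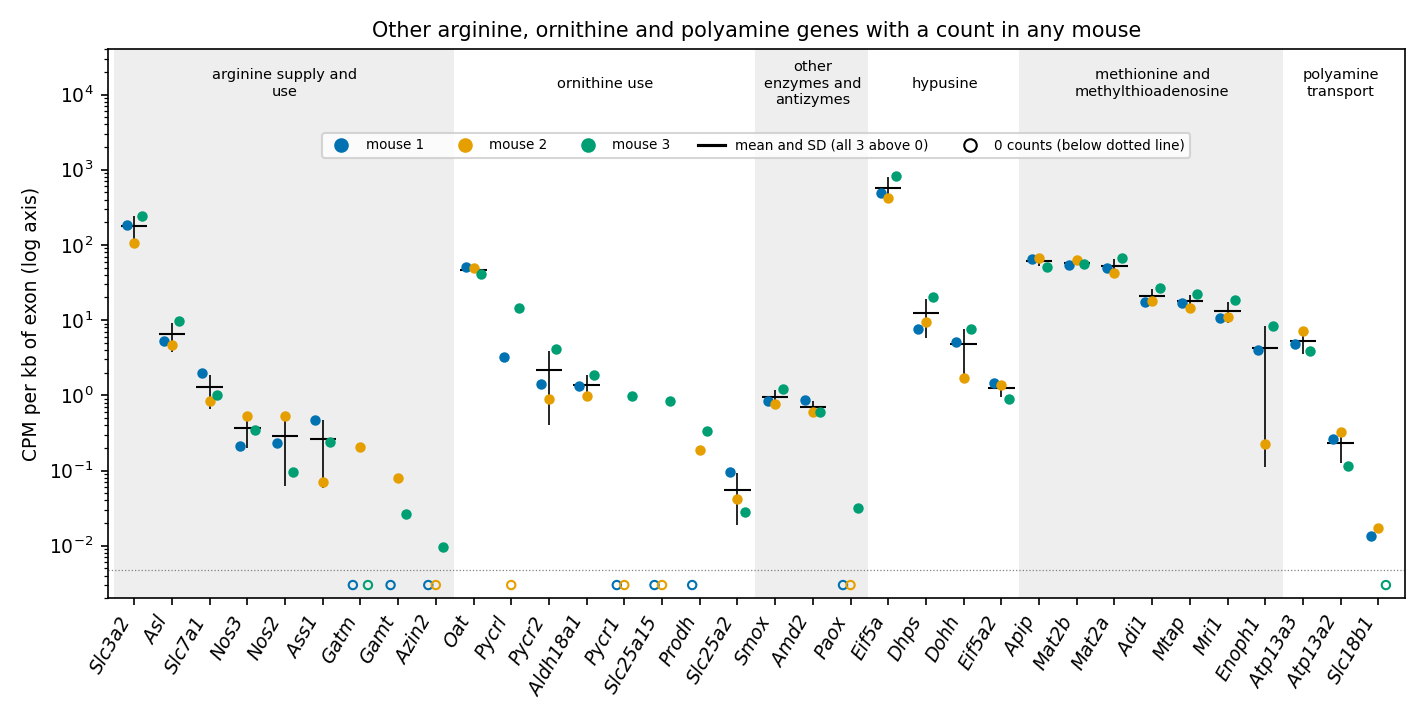
Level of the 34 genes of the wider list with a count in any mouse, in CPM per kb of exon on a log axis, grouped by role; points are the 3 mice, lines mean and SD, open points 0 counts. Eif5a and Slc3a2 lie highest, and Pycr1 and Slc25a15 have a filled point for mouse 3 alone.

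Of the 19 detected genes of this list, 12 were highest in mouse 3, or 63.2%, where 34.4% of all 8461 detected genes were. Of the 9 detected arginase and polyamine genes, 4 were highest in mouse 3, 3 in mouse 1 and 2 in mouse 2. The plasma cell markers were highest in mouse 3 too, and their part in these counts was not tested.

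Variation between the mice was the only difference between samples that the series offers. Of the 9 members tested, 0 stood above the abundance trend of the edgeR quasi-dispersions after Benjamini-Hochberg adjustment at 0.05, where 0.185% of the 9175 tested genes did. The test can miss changes of several-fold in a single library, so 0 calls do not show that levels were even. In the same edgeR fit 1 member, Srm, had an unadjusted p below 0.05 (adjusted p = 0.975), as did 4.53% of all tested genes. Limma also called 0 members, with 1 at an unadjusted p below 0.05, and DESeq2 marked 0 as dispersion outliers. Arg2 had too few counts for the test. The median CV of the 9 members was 18.4% against 30.2% over all tested genes, and 7 of the 9 lay below that value. Of these 9 members, 6 were above the median abundance of the tested genes (20.0 CPM), where the median CV was 21.5% against 43.6% below it. The 22 tested genes of the wider list had a median CV of 32.3%. Without mouse 3 the log2 ratio of the Srm dispersion to the trend went from 2.32 to -0.76, and its CV from 69.8% to 28.4%.

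**Figure D4:**
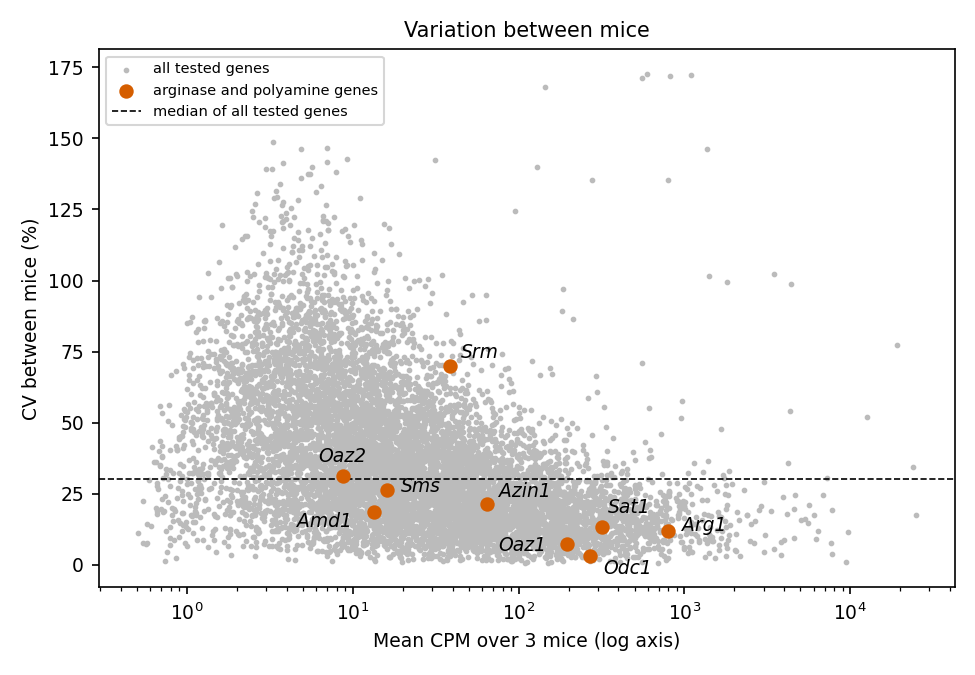
CV between the 3 mice (vertical axis, percent) against mean CPM (log axis) for the 9175 tested genes in grey, with the 9 tested arginase and polyamine genes in orange and the median of all genes as a dashed line. Srm lies at 69.8%, while Odc1, Oaz1, Arg1 and Sat1 lie between 3.21% and 13.2%.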

How the data were processed

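RNA of sorted ILC2s was measured in 3 libraries, for which the labels' protocols name a SMARTer low-input cDNA kit. The deposited table holds raw read counts per Entrez gene ID, without normalization. The submitters' processing notes name CASAVA 1.8.2, STAR 2.3.0 and the mm10 build. How reads were counted is not stated. The members, lists and comparisons were chosen with earlier results of these data known.

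Of 27179 IDs, 25275 matched a RefSeq symbol (GRCm38.p6). Exon lengths are unions from GENCODE M21. CPM used library sizes scaled by TMM (edgeR 4.0.16, R 4.3.3), with factors of 1.03, 0.987 and 0.989. Library totals were 22112425, 17819551 and 26374248. Floors of 3 counts and Poisson intervals cover counting error only. Gene pairs were compared within libraries with exact sign-flip tests. Variation was tested with an intercept-only edgeR quasi-likelihood fit on genes passing filterByExpr (minimum count 10). Run on simulated counts, the test missed most genes raised several-fold in a single library. Alternatives used DESeq2 1.42.0 and limma 3.58.1. By rule, the named genes were all members, the 2 highest per kb and those with 0 counts in each role. For Arg1 and Odc1 the 3 nearest in log2(CPM + 0.5) were added. Other genes of the wider list are marked above as named or singled out after their values were seen. Nothing states that the libraries came from separate sorts, so the p-values concern these libraries only. With 3 libraries the sign-flip p takes its lowest possible value whenever the 3 differences share a direction, whatever their spread. The labels name no batch. Of the markers, Lyz2, Il23r, Il22 and Il17a were named after their values were seen. A marker of the ILC3 list is not reported here.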

Additional observations from a re-analysis of the deposited data

How the results depend on the processing

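No pairing of samples between groups was possible because all 3 libraries belong to a single group. Genes were paired within each library. Without division by length the log2 difference was 10.3 for Arg1 and Arg2, 0.48 for Odc1 and Oaz1, 2.09 for Odc1 and Azin1, 1.06 for Srm and Sms and 0.22 for Sat1 and Odc1. Per kb of coding length these were 10.3, -0.54 (the direction turned), 2.05, 1.33 and 1.59, and 3.83 for Odc1 and Amd1, which was 4.03 with the counts of copies added. A pseudocount of 0.1 gave 10.9 and one of 1 gave 8.33 for Arg1 and Arg2. Leaving out each mouse gave -0.013 to 0.13 for Odc1 and Oaz1, below 0 without mouse 1, and 2.06 to 3.31 for Srm and Sms. Of the comparisons of main results with an alternative, 86 stayed within 1 SD or 1.5 times, 16 moved and 2 turned direction. Part of the 86 was fixed in advance. Leaving out 1 of 3 mice cannot shift the mean of a gene pair by 1 SD, so it could only stay or turn direction. Adding copies could not change pairs whose genes had no counted copy. The 9 detected members and the 0 more variable members were the same under each setting tried. Over all genes 17 were more variable in the report, 0 with a robust prior, 1 without immunoglobulin genes and 13 to 31 without each mouse, the highest without mouse 1. The causes were not tested. The log2 ratio of Srm to the trend was -0.76 to 3.50 without each mouse, below 0 without mouse 3. Depth limits statements on genes with 0 counts to levels above 0.115 to 0.171 CPM. This limit covers counting error only. Counts of 0 also occurred beside higher levels in another library, as for Pycrl with 0 CPM in mouse 2 and 19.4 CPM in mouse 3. A row with 0 counts therefore does not show that the transcript was absent from the cells.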
